A study of Mus musculus with 17 samples.

Results

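The genes followed here are 10 genes high in fetal liver that fall silent after birth beside Afp: H19, Igf2, Gpc3, Dlk1, Peg3, Mest, Plagl1, Cdkn1c, Grb10 and Cd24a. The members were taken by symbol, as every probe whose platform annotation carried one of these names. The list of genes was chosen with earlier results of these data known. Of the 10 genes, 7 had a probe, and H19, Mest and Plagl1 were not analysed here. The 7 genes held 10 of the 20794 probes, with 2 probes each for Dlk1, Grb10 and Cd24a and 1 for each of the others, among 9030 named genes in all.

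Liver RNA of Afp knockout mice (the labels write AFP1 kO and describe no allele, strain or promoter) was hybridised to 2-colour cDNA arrays against pooled wild-type liver RNA. The adult group held 6 mutant males aged 17 weeks, each compared with a pool of 6 wild-type males of that age. Animals 1, 2, 3, 4 and 6 were measured on 2 arrays with the dyes exchanged, and animal 5 on 1 array with the mutant in Cy5, which made 11 arrays. The fetal group held 6 mutant embryos, 3 male and 3 female, on 1 array each with the mutant in Cy5, against a wild-type pool. For this pool the labels list 4 animals, whereas the protocol speaks of 6. The labels give these embryos and their pool the age 7.5 E and call the tissue fetal liver, and that day is kept as a label alone. They name the same 4 pool animals on every fetal array, yet call the pool male for embryos 1 and 2 and female for the other 4. All values are log2 ratios read as mutant over pool, where 1 means a mutant signal 2 times that of the pool. For the arrays with the mutant in Cy3 that direction is an assumption, since the labels do not state it. Such a ratio gives a difference and no level, so genes cannot be ordered by abundance and the silencing after birth itself was not measured. Wild-type RNA entered only as a pool, and no test here covers how wild-type animals vary among themselves. Since every fetal array had the mutant in Cy5, mutant and dye cannot be told apart in a fetal ratio.

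Genomic imprinting keeps 1 parental copy of a gene silent, and many imprinted genes set the growth of the fetus. Igf2, Dlk1, Peg3, Mest, Plagl1 and H19 are known as imprinted, as are Cdkn1c and Grb10, which restrain growth. Gpc3, a heparan sulfate proteoglycan, and Cd24a, a small surface glycoprotein, are known with Afp as oncofetal genes: high in fetal liver, low in adult liver and high again in liver tumours.

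Promoter sequence was looked at because imprinting acts through methylation of CG pairs, and because Plagl1 is a zinc finger factor known to bind the palindrome GGGGCCCC near imprinted genes. RefSeq windows of assembly GRCm38.p6, from 250 bases before to 50 bases after a transcript's start, matched 7 of the 10 listed genes with 13 windows: Igf2 with 4, Mest with 3, Grb10 with 2, and Gpc3, Dlk1, Peg3 and Plagl1 with 1 each. These 13 windows held a median of 14 CG pairs, against 7 over all 32851 windows of the table, and 11 of the 13 lay above that median. They are not 13 separate promoters, since 2 Mest windows, starting at chr6:30737800 and chr6:30737803, nearly coincide and hold 17 CG pairs each. The letters GGGGCCCC, which read the same on both strands, stood in 354 windows (1.08%) and in 1 of the 13, at Peg3, 201 bases before the start. The 3 stretches below show that match and the 2 extremes of CG content. Each lies on the minus strand and is printed 5′ to 3′, and none of the arrays measured methylation or binding there.
Peg3, chr7:6730587-6730646, capitals mark the palindrome: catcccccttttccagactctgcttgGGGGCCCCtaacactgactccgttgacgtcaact
Grb10, chr11:12037421-12037480, capitals mark CG pairs: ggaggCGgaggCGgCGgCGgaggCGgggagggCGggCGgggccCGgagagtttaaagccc
Igf2, chr7:142666817-142666876, capitals mark CG pairs: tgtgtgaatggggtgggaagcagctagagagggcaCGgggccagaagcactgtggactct
The Grb10 stretch held 8 CG pairs, and its whole window 45, more than in 98.1% of all windows. The Igf2 stretch, from the window of its farthest upstream start, held 1, and that window held 2 in all. The other 3 Igf2 windows held 7, 14 and 24, so the starts of this gene differ widely in CG content.

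The targeted gene was checked first. In the embryos Afp stood at -8.40 (n = 6, limma adjusted p = 1.15e-08), below the pool in every embryo by each of its 3 probes, which read from -9.44 to -7.45. In 4 of the 6 embryos 2 of the probes gave the same value (within 0.0015), and in 3 of them 2 probes stood 1 log2 unit apart, so the size is not read as a measured fold and no SD is given. In the adults it stood at -0.03 ± 0.19 (n = 6, adjusted p = 0.944), so the adult ratio does not check the knockout label. Each array carried 20078 to 20697 values, and array medians lay between -0.11 and 0.09. Fetal values were paired with probes after a shift of 11 rows, which is inferred from the values. Same-gene probes and dye profiles matched best at that shift for probes up to 20000. Neither did for later rows, among them the Gpc3 probe (20573) and 1 of the 2 Dlk1 probes (20288), whose block from 20001 to 20400 matched the dye profile best at a shift of 12 (rho of 0.25, and 0.22 at 11).

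With the Cy3 ratios read as deposited, none of the 7 genes differed from the wild-type pool past the threshold at either age. With limma and Benjamini-Hochberg adjustment over all features, 0 of 7 passed in the adults, where 0 of 17039 features (0%) passed. In the embryos 0 of 7 passed, against 43 of 16987 features (0.253%). At an unadjusted p under 0.05 the members again numbered 0 at both ages, against 7.71% of features in the adults and 20.9% in the embryos. Nor did any of the 7 keep all its animals on the same side of 0 at either age, which 6.33% of features did in the adults and 15.9% in the embryos. With the Cy3 ratios turned in sign 3 of 7 did in the adults (Cdkn1c above 0, Gpc3 and Dlk1 below), against 19.7% of features, and on the Cy5 arrays alone 2 of 6 (Cdkn1c and Gpc3), against 18.3%. The median over the 7 genes was 0.06 in the adults and 0.07 in the embryos, beside 0.01 and 0.004 over all features. With the adult dye profile (defined below for Cdkn1c) subtracted, 3 of 7 passed in the embryos, when 5114 features passed. A dye part in the fetal ratios was not tested apart from the mutant. In bulk tissue, fewer cells of a type and less RNA per cell cannot be told apart.

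**Figure D1:**
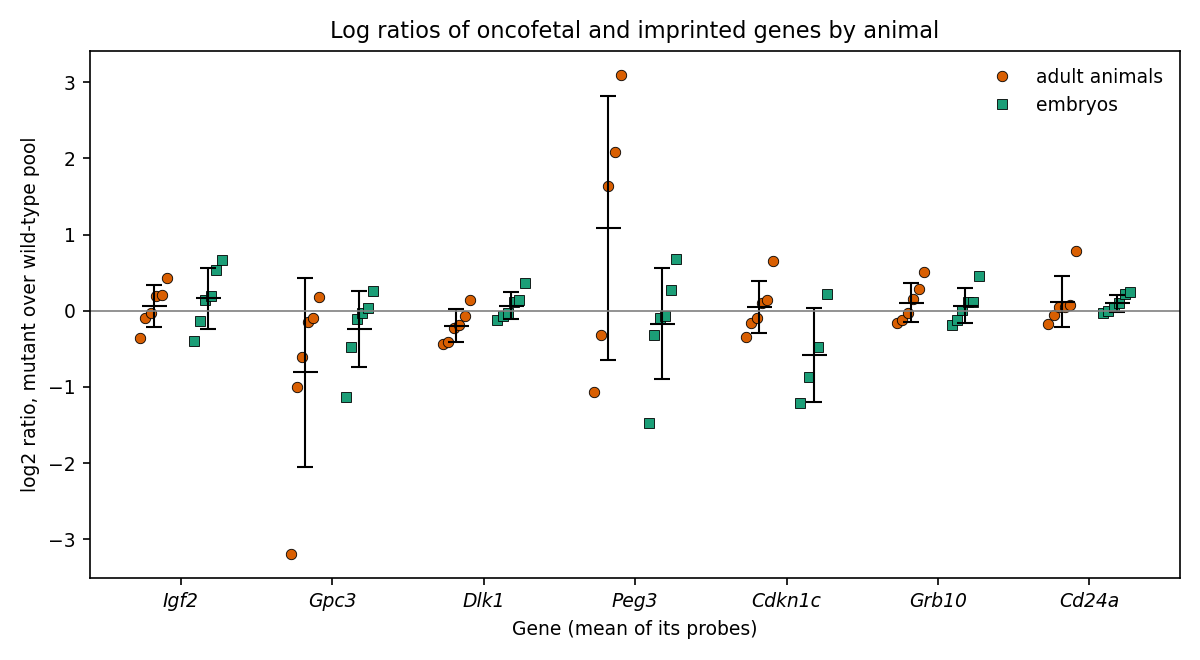
Log2 ratio of mutant over wild-type pool (vertical axis) for each of the 7 genes, with 1 circle per adult animal (its 2 arrays averaged where both gave a value; animal 5 has Cy5 alone, and for Peg3 animals 1, 2 and 4 have Cy3 and animal 6 Cy5 alone) and 1 square per embryo; bars are the mean and SD. In animal 6, Cd24a probe 15563 has Cy3 alone and Dlk1 probe 2622 has Cy5 alone. Most points lie within 1 unit of 0 and straddle it, while adult Gpc3 reaches -3.19 in animal 6 and adult Peg3 spreads from -1.07 to 3.10.

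Igf2 encodes insulin-like growth factor 2, the main growth factor of the fetus, and is expressed from the paternal copy. In the adults its ratio ran from -0.36 over a median of 0.08 to 0.43, and in the embryos from -0.40 over 0.16 to 0.67. Values of both groups lay on either side of 0, with 3 of 6 adults and 4 of 6 embryos above it. The means were 0.06 ± 0.28 (SD, n = 6, adjusted p = 0.891) and 0.16 ± 0.40 (n = 6, adjusted p = 0.538). The 95% intervals were -0.22 to 0.34 and -0.17 to 0.50. They cover the spread among mutant animals alone, and leave out error of the pool, the dye and the Cy3 direction. By dye the adult mean was 0.20 on the Cy5 arrays and -0.08 on the Cy3 arrays. With the adult dye profile subtracted the fetal mean was -0.0026.

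Grb10 encodes an adaptor that binds the insulin and IGF receptors and dampens their signal, and so acts against Igf2. Adult ratios ran from -0.16 over 0.06 to 0.50, and fetal ratios from -0.19 over 0.06 to 0.46. The means were 0.11 ± 0.26 (adjusted p = 0.792) and 0.07 ± 0.23 (adjusted p = 0.718, n = 6 each). The 2 probes of Grb10 differed in spread. On adult Cy5 arrays, probe 4385 ranged from -1.72 to 0.95 and probe 19857 from 0.06 to 0.75. Animal 6, lowest by probe 4385, stood at 0.49 by probe 19857, so that the gene mean hides a disagreement between probes.

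Cdkn1c encodes p57, an inhibitor of cyclin-dependent kinases that is expressed from the maternal copy and stops cells from dividing. Its adult mean over both dyes was 0.05 ± 0.34 (n = 6, adjusted p = 0.920), which joined 2 opposite readings, and the highest value, 0.65, came from animal 5, which had no Cy3 array. On the 6 arrays with the mutant in Cy5 the ratio lay above 0 in every animal, from 0.26 over 0.64 to 0.80. On the 5 arrays with the mutant in Cy3 it lay below 0 in every animal, at -0.57, -0.82, -1.39, -0.61 and -0.19 in animals 1, 2, 3, 4 and 6. This pattern, above 0 on every Cy5 array and below 0 on every Cy3 array, held for 1 of the 7 genes and for 6.13% of 16623 features (7% with the reverse pattern counted too). The dye profile, taken as the difference between an animal's 2 arrays divided by 2, was 0.64 ± 0.28 (n = 5) for Cdkn1c, larger in size than for 90.9% of features. Which way the Cy3 ratios run could not be settled. The Cy5 and Cy3 arrays of an animal correlated at -0.21 to -0.43 over 5 animals (Spearman's rho across probes, which are not independent replicates). Values beyond 10 in size all lay above 0 on the Cy5 arrays (168 in the adults, 277 in the embryos) and all below 0 on the Cy3 arrays (140). Read as deposited, 0 features passed in the adults. With the Cy3 ratios turned in sign, Cdkn1c stood at 0.64 and passed (adjusted p = 0.0124, 1760 features passing), and with the Cy5 arrays alone it stood at 0.58 and passed (adjusted p = 0.0333, 1106 features passing). The call for adult Cdkn1c thus depends on how the orientations are read. For an animal with both arrays, its turned mean and its dye profile are the same number by definition.

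In the embryos, all with the mutant in Cy5, Cdkn1c had values in 4 of 6. They were -0.86 in embryo 2, -1.21 in embryo 3, 0.22 in embryo 5 and -0.47 in embryo 6. Of these, 3 lay below 0 and 1 above it, with a mean of -0.58 ± 0.61 (n = 4, adjusted p = 0.241). The exact sign-flip test gave p = 0.25, where 4 values can give no less than 0.125. With the fetal names as deposited, the mean was 0.06.

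**Figure D2:**
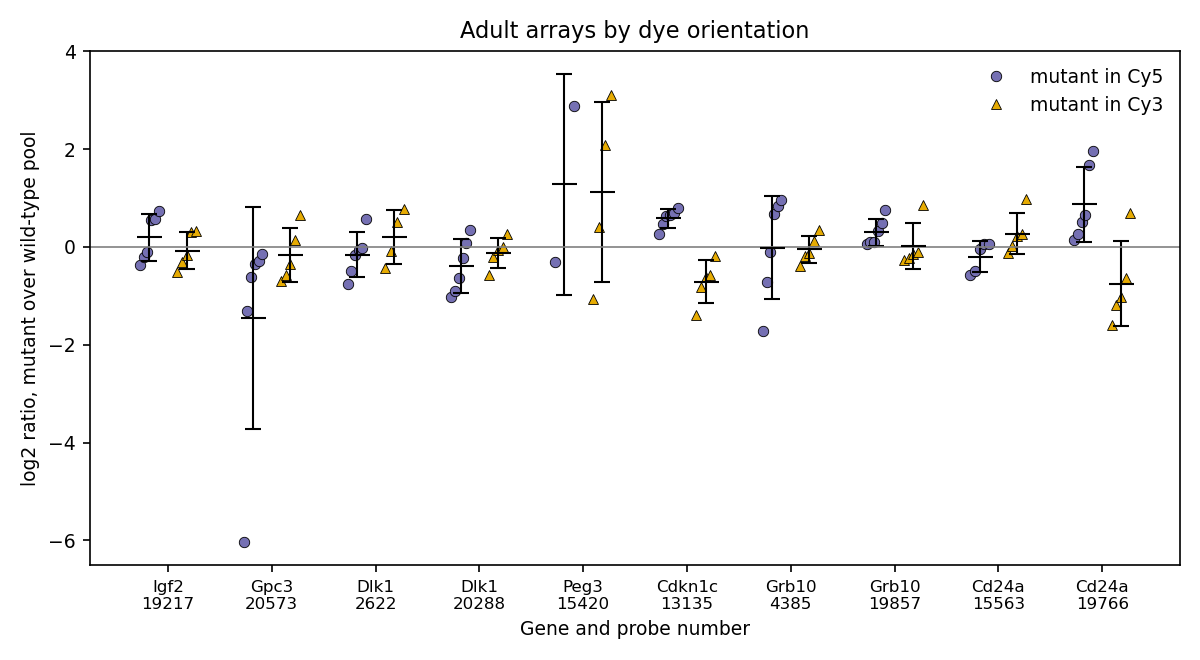
Log2 ratio of mutant over pool (vertical axis) on the adult arrays for each of the 10 probes, with circles for arrays carrying the mutant in Cy5 and triangles for those carrying it in Cy3; bars are the mean and SD. The 2 orientations separate around 0 for Cdkn1c, overlap for most probes, and 1 Cy5 array puts Gpc3 at -6.02.

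Gpc3 encodes glypican-3, which sits on the cell surface and binds Wnt, hedgehog and other growth factors. Its adult ratio ran from -3.19 over -0.38 to 0.19, and 5 of 6 animals lay below 0. The mean was -0.81 ± 1.24 (n = 6, adjusted p = 0.655, exact sign-flip p = 0.125). Animal 6 decided that value. Its Cy5 array read -6.02 and its Cy3 array -0.36, while the other Cy5 arrays lay between -1.31 and -0.15. Without animal 6 the mean was -0.33 (adjusted p = 0.754), and without its Cy5 array alone, a choice made after the value was seen, -0.34. The fetal ratio ran from -1.13 over -0.07 to 0.26, with a mean of -0.24 ± 0.50 (n = 6, adjusted p = 0.457), in a row whose name the shift does not secure.

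Dlk1 encodes a membrane protein related to the Notch ligands that marks fetal liver progenitors and is expressed from the paternal copy. Adult ratios ran from -0.44 over -0.21 to 0.14, below 0 in 5 of 6 animals, with a mean of -0.20 ± 0.22 (n = 6, adjusted p = 0.662). Fetal ratios ran from -0.12 over 0.05 to 0.36, 3 on each side of 0, with a mean of 0.07 ± 0.18 (n = 6, adjusted p = 0.660). Here too the probes parted. On the Cy5 array of animal 3 probe 2622 read 0.57 and probe 20288 read -1.03, and in embryo 3 they read -0.42 and 0.70.

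Cd24a encodes a mucin-like surface protein of progenitor and many blood cells. Adult ratios ran from -0.18 over 0.05 to 0.79, with a mean of 0.12 ± 0.34 (n = 6, adjusted p = 0.797). Animal 6 held the highest value, and the other 5 lay at or below 0.07. In animal 6 probe 15563 had no Cy5 value and read 0.97 in Cy3, while probe 19766 read 0.52 and 0.69. The mean of animal 6 thus joins a probe measured in 1 dye with a probe measured in both. By dye, probe 19766 averaged 0.87 ± 0.76 with the mutant in Cy5, above 0 on 6 of 6 arrays, and -0.75 ± 0.88 with it in Cy3, below 0 on 4 of 5. Probe 15563 ran the other way, at -0.20 ± 0.31 and 0.27 ± 0.42 (n = 5 each), so a single dye profile for Cd24a describes neither probe. In the embryos the gene mean ran from -0.03 over 0.07 to 0.25, a tight 0.10 ± 0.11 (n = 6, adjusted p = 0.452). Probe 15563 lay above 0 in 6 of 6 embryos, from 0.12 to 0.54 (mean 0.26 ± 0.15, adjusted p = 0.132), whereas probe 19766 averaged -0.07 ± 0.28. Neither probe passed.

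Peg3 encodes a large zinc finger protein expressed from the paternal copy. It was the least completely measured member, with values on 2 of 6 Cy5 and 4 of 5 Cy3 adult arrays, and 196 of the 20794 probes (0.943%) likewise lacked 5 or more of 11 adult values. Animals 1, 2 and 4 had a Cy3 value alone and animal 6 a Cy5 value alone, so these ratios mix dyes, and with the Cy3 ratios turned the mean was -0.64. By animal the adult ratios were 2.09, 3.10, 1.64, -1.07 and -0.32 in animals 1, 2, 3, 4 and 6. The first 3 lay far above the pool and the other two below it, giving 1.09 ± 1.73 (n = 5, adjusted p = 0.670). Fetal ratios ran from -1.47 over -0.08 to 0.68, with a mean of -0.17 ± 0.73 (n = 6, adjusted p = 0.721).

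The spread between animals differed widely among the members. The SD between adult animals was larger than that of 97.9% of features for Peg3 and of 96.0% for Gpc3, and smaller than most for Dlk1, which exceeded 17.5%. With the Cy3 ratios turned these shares were 98.2%, 94.7% and 6.22%. For Peg3 the spread also joins animals measured with different dyes. In the embryos Peg3 exceeded 96.0% of features and Cdkn1c 94.0%, while Cd24a exceeded 6.58%. Between pairs of members, r over the 6 animals ran from -0.84 to 0.55 in the adults and from -0.88 to 0.89 in the embryos. The -0.84 was that of Gpc3 with Cd24a, where Spearman's rho was 0.03 and adult animal 6 was the extreme of both. None of the 15 pairs per age passed, with a smallest Benjamini-Hochberg adjusted permutation p of 0.693 and 0.208 for Pearson's r, and 0.926 and 0.743 for Spearman's rho. Over the 12 animals, with each age's mean subtracted, the gene most like each member among 8600 genes was Gimap3 for Igf2 (Pearson r = 0.86), Fas for Gpc3 (0.95), Ybey for Dlk1 (0.91), Tex2 for Grb10 (0.86) and Mtch2 for Cd24a (0.93). These are descriptions over arrays that share a pool within each age, and Peg3 and Cdkn1c, with missing values, were left out. Each r is the highest of 8600, and for Gpc3 and Cd24a adult animal 6 lay far from the other adults.

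Adult Cy5 arrays were compared with the fetal arrays, all of which also carry the mutant in Cy5, to ask whether a member's ratio differed between the ages. Pool and sex changed with age: the adults were 6 males, the embryos 3 males and 3 females. Age, pool and sex composition cannot be told apart. Of the 6 members tested, 0 passed, against 28 of 16822 features (0.166%). At an unadjusted p under 0.05 there were 2, Cdkn1c higher and Dlk1 lower in the adults, against 20.1% of features. Peg3, with 2 adult Cy5 values, was not tested.

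Cdkn1c had the smallest p among the members. It stood at 0.58 in the adults (n = 6, from 0.26 to 0.80) and at -0.58 in the embryos (n = 4, from -1.21 to 0.22), a difference of 1.17 (95% interval 0.61 to 1.72, limma adjusted p = 0.0711). The highest embryo lay below the lowest adult, which was so for 1 of the 6 members and for 2.31% of features. The exact permutation test gave p = 0.00476, the smallest that 6 against 4 values can give, and by limma's p Cdkn1c ranked 173 of 16822. Leaving out adult animal 1 made it pass (1.23, adjusted p = 0.0254, with 1266 features passing), and so did the fetal names as deposited (0.52, adjusted p = 0.0223, with 1579 passing). With adult means over both dyes the difference was 0.63 (adjusted p = 0.345). The direction, adult above fetal, was the same in these settings. With the names as deposited, the fetal mean of 0.06 came from another row than the shift gives, while the adult Cy5 mean stayed at 0.58. That setting therefore does not test the fetal value of Cdkn1c.

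Dlk1 stood at -0.28 ± 0.18 on the adult Cy5 arrays and at 0.07 ± 0.18 in the embryos (n = 6 each), lower in the adults by a difference of -0.34 (95% interval -0.63 to -0.06, adjusted p = 0.173, exact permutation p = 0.0108). The groups overlapped, since adult animal 1 read 0.03. The other differences were -1.21 for Gpc3 (adjusted p = 0.448), 0.30 for Cd24a (0.383), 0.08 for Grb10 (0.857) and 0.03 for Igf2 (0.952). For Gpc3 the difference shrank to -0.30 without adult animal 6.

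**Figure D3:**
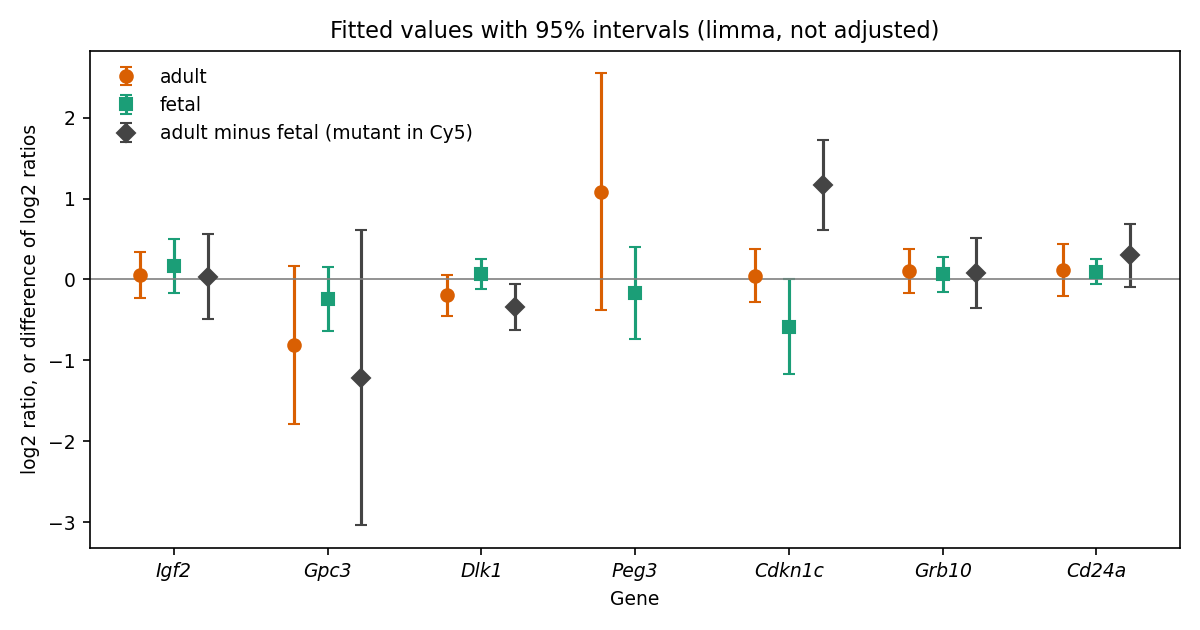
Fitted log2 ratio in the adults (circles) and embryos (squares) and the adult minus fetal difference on Cy5 arrays (diamonds) for each gene, with limma's 95% intervals, not adjusted. Among the differences, the intervals of Cdkn1c (0.61 to 1.72) and Dlk1 (-0.63 to -0.06) exclude 0, and Peg3 has no difference because it was not tested.

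Female and male embryos were compared because the series holds both sexes. All 3 females and 1 male were hybridised against the pool labelled female and 2 males against that labelled male, so sex and pool label largely coincide. Of the 7 members 0 passed, against 2 of 16959 features (0.0118%). At an unadjusted p under 0.05 there were 2, Gpc3 and Cdkn1c, against 3.14% of features, and the same pair had sexes that did not overlap, as 9.57% of features did. Gpc3 read -1.13, -0.48 and -0.10 in the females and -0.03, 0.04 and 0.26 in the males, a difference of -0.66 (adjusted p = 0.997, exact permutation p = 0.1, the smallest that 3 against 3 allows). Cdkn1c read -0.47 and 0.22 in 2 females and -1.21 and -0.86 in 2 males, a difference of 0.91 (adjusted p = 0.997, exact permutation p = 0.333, again the smallest possible). With the fetal names as deposited both differences changed sign, to 0.71 and -0.06. The other 5 differed by -0.75 for Peg3, -0.18 for Dlk1, 0.10 for Grb10, 0.06 for Igf2 and 0.02 for Cd24a.

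Among other imprinted genes, 38 of 81 listed were measured, and limma passed 0 in the adults, the embryos or between the ages. At an unadjusted p under 0.05 there were 3 in the adults, all lower (7.89% of the list), and 7 higher and 3 lower in the embryos (26.3%). Over all features these shares were 7.71% and 20.9%, the background for each unadjusted count of a gene list given from here on. In the adults 17 had a mean above 0 and 21 below (median -0.02), and in the embryos 18 and 20 (median -0.02). Over all features the medians were 0.01 and 0.004. Slc38a4, an amino acid transporter expressed from the paternal copy in fetal liver, had the smallest p of the list in the adults, at -0.55 ± 0.33 (n = 6, adjusted p = 0.639). In the embryos it stood on the other side of 0, at 0.36 ± 0.20 (n = 6, adjusted p = 0.0951), and the Cy5 difference between the ages was -0.92 (adjusted p = 0.0691). Its dye profile was -0.01, which is also the mean with the Cy3 ratios turned over the animals with both dyes. The adult value of -0.55 thus depends on how the Cy3 ratios are read. In the embryos Tspan32 stood at 0.33 ± 0.11, Impact at 0.39 ± 0.18 and Slc22a18 at -0.51 ± 0.40 (adjusted p = 0.0860, 0.0867 and 0.120), and none passed. Cobl, singled out after its value was seen, averaged 3.31 ± 6.51 in the embryos (adjusted p = 0.412), a spread larger than the mean. Of 20 measured genes that other studies tie to the imprinted gene network, such as matrix genes, 0 passed at either age (unadjusted 2 and 3, medians -0.06 and 0.05), with Col3a1 at 0.51 ± 0.65 in the embryos.

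**Figure D4:**
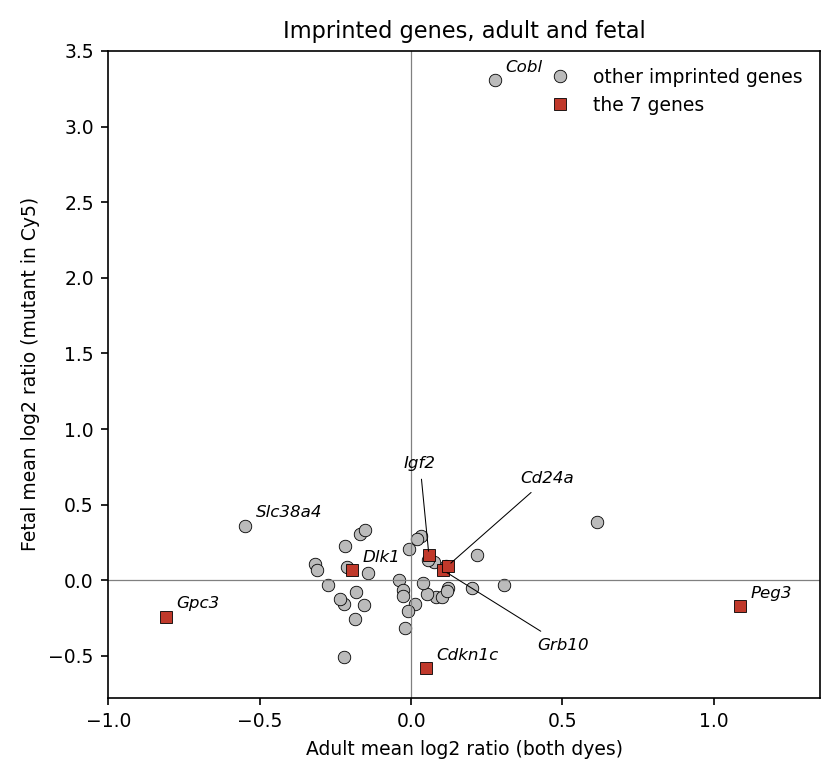
Adult mean log2 ratio (horizontal axis, both dyes) against fetal mean log2 ratio (vertical axis, mutant in Cy5) for the 7 genes (squares) and the 38 other imprinted genes measured (circles). Most of them gather near 0 on both axes, Gpc3 and Peg3 stand apart along the adult axis with means of -0.81 and 1.09, and Cobl along the fetal axis at 3.31.

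Around Igf2 and Grb10, 21 of 31 listed genes of IGF and insulin signalling were measured and 0 passed at either age (unadjusted 3 and 5, medians -0.06 and 0.00056). Igfbp1, a binding protein that limits IGF access to its receptor, stood at 0.96 ± 0.83 in the embryos (adjusted p = 0.127). Akt1, a kinase downstream of the receptor, stood at -0.44 ± 0.28 in the adults (adjusted p = 0.639, dye profile -0.35). Igf2r, the receptor that clears IGF2, stood at -0.04 ± 0.28 and 0.00 ± 0.29. Around Cdkn1c, 16 of 23 cyclins, kinases and inhibitors were measured with 0 passing (unadjusted 2 and 5, medians 0.09 and 0.06). E2f1, a cell cycle transcription factor, stood at 0.46 ± 0.21 in the embryos (adjusted p = 0.0820, dye profile 0.57). Around Gpc3, 0 of 11 glypican, Wnt and hedgehog genes passed (unadjusted 0 and 1, medians -0.10 and 0.03), and around Dlk1, 0 of 13 Notch family genes (unadjusted 1 and 0, medians 0.03 and 0.06). Of 9 genes for factors that silence Afp and H19 after birth or keep imprints, 0 passed (unadjusted 0 and 3, medians 0.06 and 0.04). In each of these pairs the adult value stands first. Zhx2, the repressor behind the adult silencing of Afp, stood at 0.05 ± 0.33 in the adults and 0.18 ± 0.28 in the embryos, and Zbtb20, a further Afp repressor, at -0.17 ± 0.31 and -0.33 ± 0.71.

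Among 25 measured oncofetal and fetal liver genes of a wider list, Afp fell in the embryos and 0 others passed there, and 0 passed in the adults (2 at an unadjusted p under 0.05). Between the ages 2 passed with a higher ratio in the adults, Afp and Prom1. At an unadjusted p under 0.05 there were 4 higher and 5 lower (36% of the list, against 20.1% of features). The Afp ratio was -0.11 on the adult Cy5 arrays and -8.40 in the embryos, which says nothing of its level in adult liver. Prom1, the progenitor surface protein CD133, stood at 0.85 on the adult Cy5 arrays and 0.10 in the embryos, a difference of 0.75 (n = 6 each, adjusted p = 0.0298). It passed without adult animal 1, adult animal 6 or embryo 5, but without any 1 of the other 9 animals it did not pass (highest adjusted p = 0.108). Its dye profile was 0.93, and over both dyes its adult mean was -0.07 ± 0.54. Sall4, a fetal liver transcription factor, stood at 0.42 ± 0.36 in the embryos (adjusted p = 0.138) and at -0.29 ± 0.29 in the adults (adjusted p = 0.644, dye profile -0.15).

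Markers of the cell types that liver RNA could hold were listed beside the members. Of 13 hepatocyte markers 12 had an adult mean below 0 (median -0.45, animal medians from -0.80 to 0.29) and 0 passed (unadjusted 5). With the Cy3 ratios turned 5 of 13 lay below 0 (median 0.10), on the Cy5 arrays alone 9 (median -0.29), and on the Cy3 arrays alone 13 (median -0.65). In the embryos 9 of 12 lay above 0 (median 0.20, embryo medians from -0.14 to 0.49), and Serpina1b rose, at 0.70 ± 0.24 (adjusted p = 0.0495, dye profile 0.61). Without any 1 embryo it did not pass (0 of 6 fits, adjusted p from 0.0712 to 0.167). Endothelial markers lay below 0 for 7 of 7 genes in the adults (median -0.17), with 0 passing (unadjusted 1), but for 2 of 7 with the Cy3 ratios turned (median 0.04) and 3 of 6 on the Cy5 arrays alone (median -0.01). On the Cy3 arrays alone 6 of 6 did (median -0.44). Over all features the adult shares below 0 were 48.2% as deposited, 60.9% turned, 57.0% on Cy5 arrays and 41.9% on Cy3 arrays. The median of 6 exocrine pancreas markers lay below 0 in 6 of 6 embryos. Of the 6 genes 5 had a fetal mean below 0 (list median -0.87), and Clps, a cofactor of pancreatic lipase, stood at 0.35 (adjusted p = 0.0981). Cela2a and Cpa1, which encode digestive enzymes, stood at -1.30 and -1.17 (adjusted p = 0.0467 each, dye profiles -0.22 and -0.49). Neither passed in any of the 6 fits with 1 embryo left out (adjusted p from 0.0626 to 0.162). Of the other lists, fetal means lay above 0 for 8 of 8 stellate and mesenchymal genes (unadjusted 0). They lay below 0 for 7 of 9 granulocyte, 4 of 6 cholangiocyte and 5 of 7 erythroid markers (unadjusted 4, 3 and 2). The median of yolk sac and placenta markers without Afp lay below 0 in 6 of 6 adults as deposited and 0 of 6 embryos. In these lists and those of macrophage, lymphocyte, kidney, intestine and muscle markers, 0 genes but Afp passed at either age. Whether any of the markers had a part in the members' ratios was not tested, and ratios do not show which markers were expressed at all.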

How the data were processed

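Liver RNA of 6 adult and 6 fetal Afp mutants was measured on 17 2-colour arrays. The values are log2 ratios as deposited by the authors; base 2 was inferred from their range. For image analysis, background correction and normalization, no method is given in the sources used here. Probes were named from the platform annotation (12771 with 1 symbol, 8023 with none). Fetal rows were moved by 11: same-gene probes (5055 pairs) then correlated at 0.0867, against 0.00673 unmoved, and fetal values followed the adult dye profile at 0.377 for probes up to 20000, at 0.217 for 20001 to 20400 (0.252 at a shift of 12) and at -0.0245 from probe 20401 on. Of the same-gene pairs, 365 with a probe after 20000 matched best unmoved (0.141, against 0.0548 at 11). Arrays with the mutant in Cy3 were left as deposited and read as mutant over pool, an assumption.

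Arrays of an animal were averaged first, then the probes of a gene, and unnamed probes stayed as features. Tests used limma 3.58.1 (lmFit, eBayes) in R 4.3.3 on features with values in 4 of 6 animals per group (2 per sex), with Benjamini-Hochberg adjustment over all features and a threshold of 0.05. The script was tested on simulated data. Exact tests are two-sided and unadjusted. The labels do not say whether embryos shared a litter, and their number limits the precision. Adult and fetal replicate numbers in the titles count arrays and other animals, so they do not pair samples.

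The members and gene lists were chosen with earlier results of these data known. Named are all members, genes of each list that passed, otherwise up to 4 with the smallest p in the adults or embryos, and the gene most like each member. Igf2r, Zhx2, Zbtb20 and Cobl were named outside that rule, after their values were seen. Alternatives covered dye direction, row naming, centring, spread, extreme values, probe summary, filters, robust eBayes and each animal left out.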

Additional observations from a re-analysis of the deposited data

Results flagged for a closer look

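The 14 groups of member values by gene and age were searched for a sample far from the rest, a search in which chance marks about 1 group in 20. Adult animal 6 stood apart for 2 genes. Gpc3 read -3.19 there, with the nearest animal at -0.998, and this mean joined -6.02 on its Cy5 array and -0.36 on its Cy3 array. Cd24a read 0.79 there, with the nearest animal at 0.07. That mean includes probe 15563 with a Cy3 value alone, at 0.97.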

How the results depend on the processing

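The members that passed changed in 5 settings. In the adults 1 passed, Cdkn1c, with the Cy3 arrays turned in sign or with Cy5 arrays alone. In the embryos 3 passed with the adult dye profile subtracted, Cdkn1c at -1.23, Peg3 at -1.40 (its profile from 1 animal) and Cd24a, turned to -0.26, when 5114 features passed. Between the ages Cdkn1c passed with the fetal names as deposited, where 1 member passed, and the count ran from 0 to 1 with 1 animal left out. Signs also turned in values that did not pass. In the adults they were -0.64 for Peg3 with Cy3 arrays turned, and with Cy3 arrays alone -0.077 for Igf2, -0.71 for Cdkn1c, -0.016 for Grb10 and -0.24 for Cd24a. Cdkn1c stood at -0.072 in the 5 animals with both dyes. Without the Cy5 array of animal 6, an alternative added after its value was seen, Igf2 stood at -0.029 and Cdkn1c at -0.0070. In the embryos names as deposited gave 0.15 for Peg3 and 0.065 for Cdkn1c, and dye subtraction gave -0.0026 for Igf2 and 0.53 for Gpc3. Between the ages Igf2 stood at -0.11 with both adult dyes and -0.16 with equal spread, and Grb10 at -0.039 with names as deposited. Between the sexes names as deposited gave 0.71 for Gpc3, 0.062 for Dlk1, -0.059 for Cdkn1c, -0.075 for Grb10 and -0.053 for Cd24a, and names for probes up to 20000 alone, also added later, gave 0.17 for Dlk1. With 1 animal left out, adult values ran from -0.015 to 0.14 for Igf2, -0.072 to 0.13 for Cdkn1c and -0.013 to 0.18 for Cd24a. Fetal values ran from -0.34 to 0.092 for Peg3 and -0.014 to 0.12 for Grb10, and the adult minus fetal value of Igf2 from -0.080 to 0.15. Female minus male values ran from -0.21 to 0.33 for Igf2, -0.071 to 0.22 for Grb10 and -0.0555 to 0.085 for Cd24a. The cause of these changes was not tested.

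Counts over all features moved more: the fetal 43 became 2 with any 1 embryo left out, 26 with names as deposited or named up to probe 20000 alone, and 78 with robust eBayes, and the adult minus fetal 28 ran from 5 to 1266 with 1 animal left out. A replicate block over the 3 shared title numbers gave 0 members and 2 features between the ages, with Cdkn1c not testable, and since embryos are other animals the numbers pair nothing. Of the member values recomputed, 422 kept sign and side of the threshold, 38 changed sign and 7 newly passed, with Cd24a in the embryos counted in both. Values missing for Peg3 and Cdkn1c, the unsure row names of Gpc3 and Dlk1 and a lack of single wild-type animals limit what can be read.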
